A study of Mus musculus with 6 samples.

Results

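The genes described here encode sequence-specific factors of mRNA decay and stability and were followed in mouse embryonic stem (ES) cells before and after depletion of the RNA helicase DDX6. The 10 genes were taken by name from the count table and are the ZFP36 family (Zfp36, Zfp36l1, Zfp36l2), the Regnase genes Zc3h12a and Zc3h12c, the Roquin genes Rc3h1 and Rc3h2, and the AU-rich element binders Elavl1, Khsrp and Hnrnpd. All 10 were found among 55487 gene rows, and all 10 passed the filter on low counts, which left 15748 genes to test. All libraries came from the D6AdP line. Its cells are DDX6-AID-mCherry/DDX6-AID-mCherry, with the auxin-inducible degron (AID) on both copies, and carry a tagged decapping factor (DCP1a-EGFP/+) and the F-box transgene OsTIR1-FLAG Tg, at 0 h as at the later times. The groups were cells before treatment (0 h) and cells given the auxin analog 5-Ph-IAA at 500 nM for 3 h or 6 h, with 2 libraries each and 6 in all. The cells grew with PD0325901, CHIR99021 and leukemia inhibiting factor on mitomycin-C-treated fibroblast feeders. The promoter of the transgene is not given in the sources used here, and the libraries used hold no untreated cells kept for 3 or 6 h, so DDX6 depletion, the analog itself and the added time cannot be told apart.

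Many short-lived mRNAs carry AU-rich elements, stretches with the pentamer AUUUA, in their 3' untranslated region (3' UTR). ZFP36 proteins bind these elements through paired CCCH zinc fingers and recruit the CCR4-NOT deadenylase, whose CNOT1 scaffold also binds DDX6. Regnase-1, the product of Zc3h12a, is an endonuclease, and Roquin proteins recruit decay enzymes; both read small stem-loops in the 3' UTR. KHSRP and HNRNPD (also called AUF1) mostly promote decay of AU-rich mRNAs, whereas ELAVL1 (HuR) mostly stabilizes them. In ES cells, RNA-binding proteins of these kinds help to set the half-lives of mRNAs for signalling and pluripotency factors.

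The 3' UTRs of the decay factors themselves hold the elements that such factors read, and these sites are shown because they relate the members to each other independently of their levels. In the longest annotated 3' UTR of each gene (GENCODE M21, GRCm38) the pentamer ATTTA occurred in all 10. It also occurred in 66.2% of all 3' UTRs searched. Among those similar in length to each member's own, the share ran from 65.1% for Zfp36 to 99.8% for Rc3h1, so the pentamer does not set the members apart. The nonamer TTATTTATT, the preferred ZFP36 site, occurred in 6 of the 10 and in 7.79% of 20674 3' UTRs of at least 50 bases. The nonamer was found once in Zfp36, Zfp36l1, Zfp36l2, Rc3h1 and Rc3h2, and 8 times, with overlaps, in Elavl1. Each window below is written 5' to 3' as DNA, with the nonamer in capitals.
Zfp36, chr7:28376950-28376979, minus strand: tatgacgactTTATTTATTgtattaagatt
Zfp36l1, chr12:80108166-80108195, minus strand: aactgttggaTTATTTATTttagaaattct
Zfp36l2, chr17:84184913-84184942, minus strand: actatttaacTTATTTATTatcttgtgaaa
Rc3h1, chr1:160970043-160970072, plus strand: actttactcaTTATTTATTgagatgaggag
Rc3h2, chr2:37373286-37373315, minus strand: caaagacattTTATTTATTttactctgtaa
Elavl1, chr8:4285787-4285816, minus strand: gtcatgaaaaTTATTTATTtatttatttat
In the Elavl1 window the nonamer runs on into further overlapping copies, the first at base 3794 and the last at base 3840 of a 3' UTR of 4218 bases. Among 3' UTRs of similar length to each member's own (from 0.8 times its length to the inverse of that factor), the share with a nonamer was 4.17% for Zfp36, 10.2% for Zfp36l1, 10.1% for Zfp36l2, 28.2% for Rc3h1, 22.4% for Rc3h2 and 18.0% for Elavl1. Zc3h12a, Zc3h12c, Khsrp and Hnrnpd do not hold these letters in the 3' UTR searched.

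**Figure D1:**
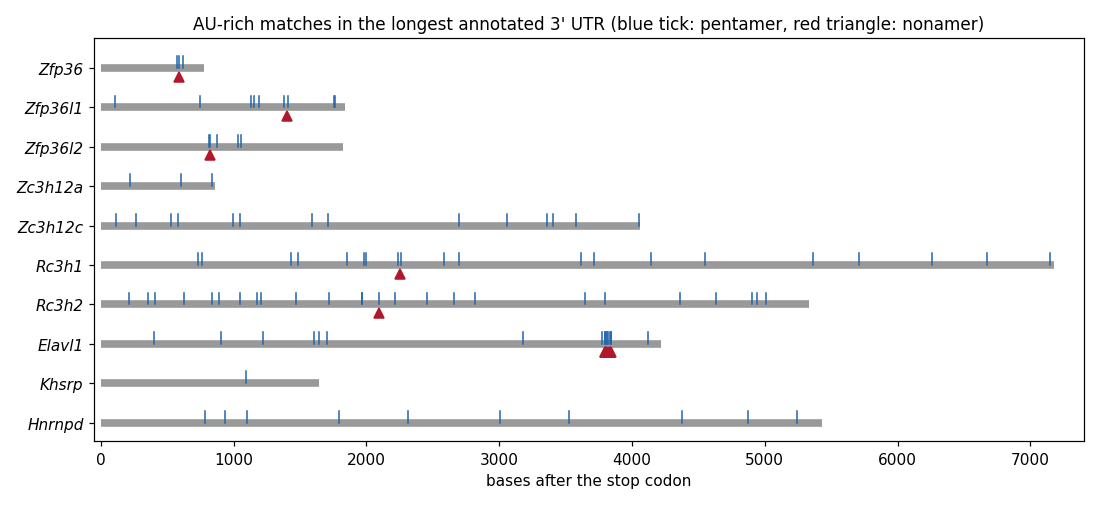
Matches along the longest annotated 3' UTR of each of the 10 genes, with bases after the stop codon on the x axis. Blue ticks mark the pentamer, present in all 10 and in 66.2% of all 3' UTRs. Red triangles mark the nonamer, present in 6 and in 7.79% of all. The 8 copies in Elavl1 lie together near the end of a 3' UTR of 4218 bases.

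The Roquin-type stem-loop, TTCNNNGAA with a pyrimidine, a purine and a pyrimidine in the loop, was also searched on the transcript strand. It occurred in 5.47% of all 3' UTRs and in 3 of the 10 members, namely in Rc3h1, Rc3h2 and Elavl1. Among 3' UTRs of similar length the share was 25.6% for Rc3h1, 17.8% for Rc3h2 and 14.0% for Elavl1. In Rc3h1 and Rc3h2 1 copy each could be extended to 6 Watson-Crick pairs around the loop of 3 bases, which 61 of 20674 3' UTRs (0.295%) allowed, and 1.2% and 1.01% of those similar in length to Rc3h1 and Rc3h2. The pair is shown because the 2 paralogs hold the same hairpin, in capitals, within a shared run of 17 bases.
Rc3h1, chr1:160971653-160971682, plus strand: agccaatAACTTCTGTGAAGTTgccttttc
Rc3h2, chr2:37373801-37373830, minus strand: tttaattAACTTCTGTGAAGTTgtttactc
The other copy in Rc3h1 and the copy in Elavl1 had 3 pairs. A match is a description of the sequence and not evidence that a protein binds there.

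The RefSeq promoter table (GRCm38.p6), which spans 250 bases before to 50 after a gene's start, held 9 of the 10 members and no entry for Zfp36l2. A CArG box, the site of serum response factor, was found in Zfp36, 58 bases before the start, and at the start of Hnrnpd. It occurred on either strand in 1.63% of 32851 promoters. Both are shown because Zfp36 is a textbook immediate early gene, with the box in capitals.
Zfp36, chr7:28379267-28379296, minus strand: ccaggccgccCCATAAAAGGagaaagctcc
Hnrnpd, chr5:99978919-99978948, minus strand: cttccgtcggCCATTTTAGGtggtccgcgg
The AP-1 letters TGANTCA were found in the promoters of Zfp36l1 and Rc3h1 and in 7.81% of all. The letters TGACGTCA (1.79% of all) and TTCCNGGAA (1.15%) were in none of the 9, and ACGTG (19.6%) only in Hnrnpd.

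The libraries held 16357142 to 21846959 counts, so 3 counts stood for 0.139 to 0.181 CPM (counts scaled to library size, with TMM factors). RNA of ES cells and of feeders was present in every library. All 10 ES cell markers had counts in all 6 libraries, and their summed level was 4538 and 4707 CPM before treatment, 4774 and 4747 CPM after 3 h, and 4301 and 4481 CPM after 6 h. Both 6 h sums lay below the other 4. Against 0 h, 4 of the 10 ES markers were called lower at 6 h and 3 higher, where 12.3% of all genes were called lower and 10% higher. Esrrb, a pluripotency factor, was lower by a log2 fold change of -0.42. The part of these markers in the falls of members at 6 h was not tested. All 24 feeder fibroblast markers had counts in every library too, with summed levels of 25081 and 27481 CPM in the 0 h libraries, 23818 and 24306 in the 3 h libraries, and 24275 and 27088 in the 6 h libraries. The 3 h sums lay below both 0 h sums, and the 6 h sums overlapped those of 0 h and 3 h. The share of each member's RNA that came from feeders was not measured, and in such bulk RNA fewer cells of a type and less RNA per cell cannot be told apart.

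Per kilobase of exon, the members spanned a wide range of abundance. Before treatment Khsrp was highest, at 100.3 ± 2.79 RPKM (CPM divided by the kilobases of merged GENCODE M21 exons, computed here; mean ± SD, n = 2, as for all means below), followed by Hnrnpd at 66.7 ± 0.727, Zfp36l1 at 44.4 ± 0.0279 and Zfp36l2 at 31.5 ± 2.08. Elavl1 stood at 14.4 ± 0.0972 RPKM, Zc3h12a at 9.37 ± 0.690, Rc3h1 at 6.87 ± 0.180, Rc3h2 at 5.89 ± 0.303, Zfp36 at 5.75 ± 0.0246 and Zc3h12c at 1.55 ± 0.000478. Rc3h2 and Zfp36 were the only neighbours in that order whose libraries overlapped at 0 h. The order was the same at 3 and 6 h, but at 6 h Zc3h12a, at 6.64 ± 0.221 RPKM, had come down to overlap Rc3h1, at 6.63 ± 0.116. Merged exons combine all annotated transcripts, so this order and the shares per kilobase below depend on the annotation. Those of Zfp36, 3470 bases, filled its whole span, so any intron was counted as exon. Those of Rc3h2 came to 19624 bases over 10 transcripts, against 11308 bases over 3 for Rc3h1.

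At 3 h none of the 10 genes was called changed by edgeR at an adjusted p under 0.05, where 0.14% of all genes tested were called, 0.0508% as higher and 0.0889% as lower. Unadjusted p-values were under 0.05 for 2 members, both lower (Zfp36 and Zc3h12c), and for 10.7% of all genes (6.19% lower), and DESeq2 and limma voom also called 0. The median log2 fold change of the members was -0.01, against -0.00084 for all genes tested. Groups did not overlap in 5 members, and they did not overlap in 42.3% of all genes.

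At 6 h 3 of the 10 genes fell against 0 h, Zc3h12a, Zfp36 and Rc3h2, and none rose; edgeR called 22.3% of all genes, 12.3% as lower and 10% as higher. At an unadjusted p under 0.05 there were 4 lower members and 0 higher ones, where 34.6% of all genes passed, 18.2% as lower. DESeq2 called 3 members (10.8% of all genes, 6.91% as lower) and limma voom 4 (22.1% of all genes, 12.3% as lower), all lower. The members had a median log2 fold change of -0.08, against 0.00195 for all genes, and 8 of the 10 values were negative. Groups did not overlap in 7 members, against 59.5% of all genes. Both contrasts use the same 0 h libraries, so they are not independent of each other.

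**Figure D2:**
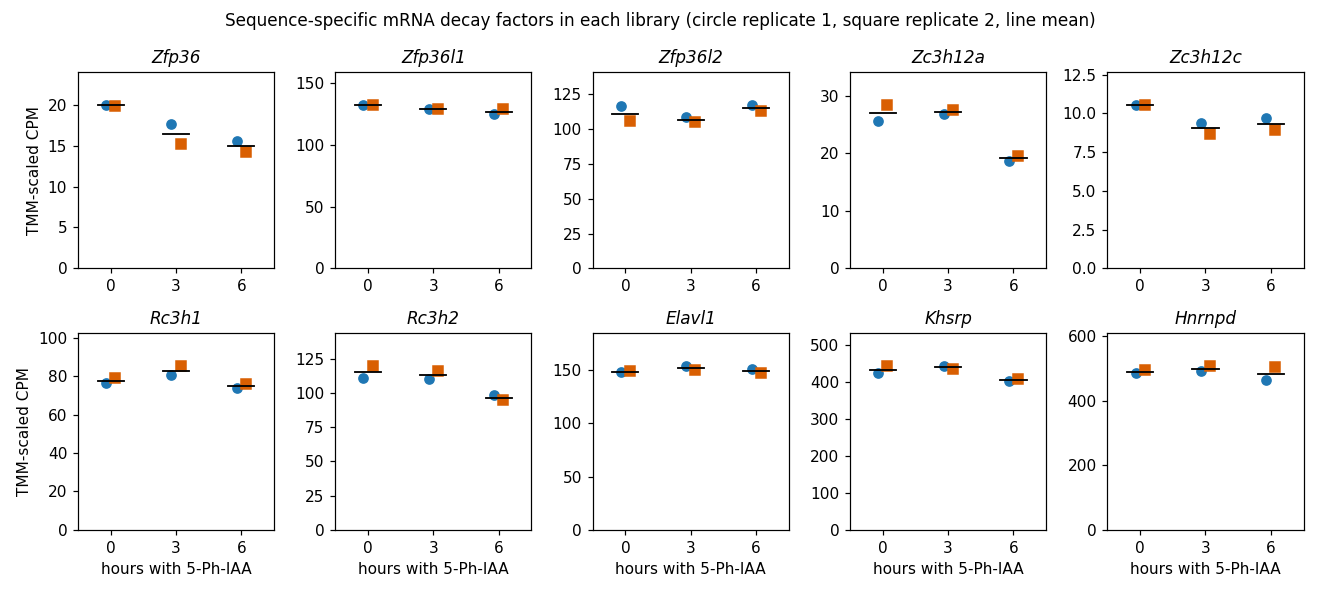
TMM-scaled CPM of each gene in the 6 libraries by hours with 5-Ph-IAA (circles replicate 1, squares replicate 2, lines the mean of 2; each y axis starts at 0). Zc3h12a and Rc3h2 are lower at 6 h than in the other 4 libraries, Zfp36 is lower at 3 and 6 h than at 0 h, and Elavl1 and Hnrnpd overlap between 0 and 6 h.

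Zc3h12a (ENSMUSG00000042677, chromosome 4, 125118423 to 125127840) encodes Regnase-1, an endonuclease that cleaves mRNAs of inflammatory genes. It measured 25.6 and 28.4 CPM (0 h), 26.8 and 27.4 CPM (3 h) and 18.7 and 19.6 CPM (6 h). The 3 h libraries lay between the 0 h libraries, and both 6 h libraries lay below all others. The log2 fold change was 0.00 ± 0.07 (SE) at 3 h (95% interval -0.14 to 0.15, adjusted p = 0.991) and -0.50 ± 0.07 at 6 h (adjusted p = 0.000115), a level of 0.708 times that at 0 h. From 3 h to 6 h the change was -0.50 ± 0.07 (adjusted p = 0.000126), so the fall was measured between those times. Of all genes, 4.62% had a lower log2 fold change than Zc3h12a at 6 h. The call at 6 h was made under all 16 alternative settings, with log2 fold changes from -0.56 to -0.42; the feeder markers, which overlapped between 0 and 6 h, left it at -0.51 as a covariate.

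Zfp36 (ENSMUSG00000044786, chromosome 7, 28376784 to 28380253) encodes tristetraprolin, which targets AU-rich mRNAs for deadenylation and is itself induced as an immediate early gene. Its level was 20.01 and 19.89 CPM (0 h), 17.6 and 15.2 CPM (3 h) and 15.6 and 14.3 CPM (6 h). All 4 treated libraries lay below both 0 h libraries, and the 3 and 6 h libraries overlapped. At 3 h the log2 fold change was -0.28 ± 0.08, with an unadjusted p of 0.00398 that did not pass over all genes (adjusted p = 0.223, and 0.0619 or more under the 16 alternatives). All 24 feeder markers were lower at 3 h as well, and with their mean as a covariate the value for Zfp36 was -0.19 (adjusted p = 0.756); their part in it was not tested further. At 6 h Zfp36 had fallen by 0.42 on the log2 scale (SE 0.09, adjusted p = 0.00223), to 0.747 times the 0 h level, and all 16 alternatives made that call. The step from 3 h to 6 h was -0.14 ± 0.09 (adjusted p = 0.282). The fitted value of Zfp36 was thus already below 0 at 3 h, where that of Zc3h12a was near 0; a difference in timing between the 2 genes was not tested.

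The other ZFP36 genes were more abundant, and neither was called in any of the 3 comparisons. Zfp36l1 (ENSMUSG00000021127, chromosome 12, 80107754 to 80113013), which acts redundantly with Zfp36l2 in several lineages, measured 132.8 and 132.6 CPM (0 h), 129.5 and 129.4 CPM (3 h) and 124.8 and 129.3 CPM (6 h). Each treated library lay below the 0 h libraries, by a fitted -0.06 ± 0.04 on the log2 scale at 6 h (95% interval -0.14 to 0.02, adjusted p = 0.268). Zfp36l1 is overlapped on the opposite strand by the non-coding gene Gm26669 over 55.9% of its exon length, and whether the counting used strand is not given, so its counts are uncertain. Zfp36l2 (ENSMUSG00000045817, chromosome 17, 84183931 to 84187947) measured 116.4 and 106.0 CPM (0 h), 108.8 and 104.9 CPM (3 h) and 117.7 and 112.8 CPM (6 h). Its groups overlapped between 0 and 6 h (log2 fold change 0.05, 95% interval -0.05 to 0.15, adjusted p = 0.475). From 3 h to 6 h it had a log2 fold change of 0.11 ± 0.05 (adjusted p = 0.117), which passed in 2 of the 16 alternatives, 1 of them the fit without scaling factors.

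Summed per kilobase, the ZFP36 family stood at 81.6 ± 2.13 RPKM at 0 h, 78.3 ± 1.30 at 3 h and 79.4 ± 0.186 at 6 h. Zfp36 made up 7.05% ± 0.154 of that sum at 0 h, 6.04% ± 0.530 at 3 h and 5.41% ± 0.316 at 6 h. Zfp36l1 held 54.4% ± 1.39 at 0 h and 53.5% ± 1.46 at 6 h, and Zfp36l2 38.6% ± 1.54 and 41.1% ± 1.15. The member that fell was thus the least abundant of its family. The family sums of the 6 h libraries, 79.6 and 79.3 RPKM, lay below those of the 0 h libraries, 83.1 and 80.1 RPKM. For the Regnase genes the member that fell was the more abundant one: their sum was 10.9 ± 0.689 RPKM before treatment, 10.7 ± 0.0767 after 3 h and 8.01 ± 0.144 after 6 h, and Zc3h12a made up 85.8% ± 0.899 of it at 0 h and 83.0% ± 1.27 at 6 h. No test was run on these sums and shares.

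Zc3h12c (ENSMUSG00000035164, chromosome 9, 52111344 to 52168572), a Regnase-1 paralog with the same kind of nuclease domain, was the least abundant member. Both 0 h libraries held 10.6 CPM, the 3 h libraries 9.41 and 8.70, and the 6 h libraries 9.71 and 8.96. All treated libraries lay below the 0 h libraries, which rest on 204 and 228 counts. The log2 fold change was -0.22 ± 0.10 at 3 h (unadjusted p = 0.0409, adjusted p = 0.444) and -0.18 ± 0.10 at 6 h (adjusted p = 0.231), so no change was called. The 6 h interval ran from -0.40 to 0.04 and includes falls as large as that of Rc3h2.

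**Figure D3:**
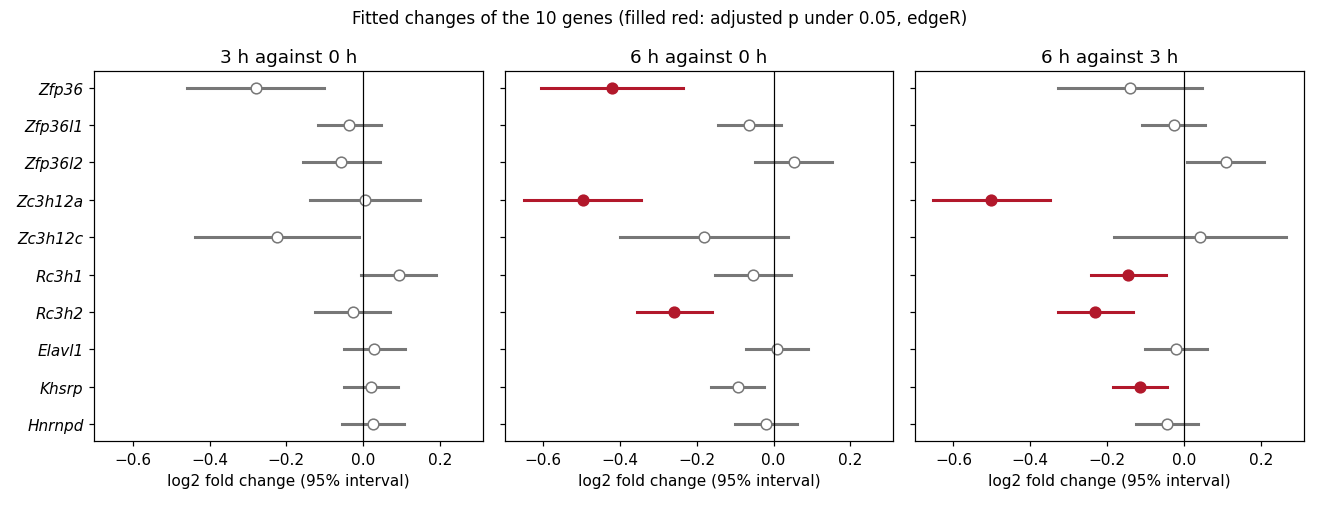
Fitted log2 fold changes (x axis) of the 10 genes with 95% intervals from edgeR, in 3 comparisons of 2 libraries each. Filled red points passed an adjusted p of 0.05: none at 3 h, 3 at 6 h against 0 h and 4 at 6 h against 3 h, all below 0.

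The Roquin genes differed in their calls. Rc3h2 (ENSMUSG00000075376, chromosome 2, 37370069 to 37422903) encodes Roquin-2, a RING and CCCH finger protein that binds stem-loops and acts redundantly with Roquin-1. It measured 111.3 and 119.7 CPM (0 h), 110.6 and 116.0 CPM (3 h) and 98.7 and 94.6 CPM (6 h). The 6 h libraries were the lowest of the 6, and the 0 and 3 h libraries overlapped. Rc3h2 fell at 6 h by 0.26 on the log2 scale (SE 0.05, adjusted p = 0.000738), to 0.836 times the 0 h level, a call made under all 16 alternatives. Against 3 h it was lower by a log2 fold change of -0.23 ± 0.05 (adjusted p = 0.00213); 15 of 16 alternatives made that call, and it was lost without replicate 2 of 3 h (adjusted p = 0.0523).

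Rc3h1 (ENSMUSG00000040423, chromosome 1, 160906418 to 160974978), which encodes Roquin-1, measured 76.3 and 79.1 CPM (0 h), 80.4 and 85.3 CPM (3 h) and 74.0 and 75.8 CPM (6 h). Its highest values were at 3 h and its lowest at 6 h, and no 2 of the groups overlapped. Against 0 h the log2 fold change was 0.09 ± 0.05 at 3 h (adjusted p = 0.491) and -0.05 ± 0.05 at 6 h (95% interval -0.15 to 0.05, adjusted p = 0.460). Against 3 h it was lower by a log2 fold change of -0.14 ± 0.05 (adjusted p = 0.0344), a call that 8 of the 16 alternatives lost, among them DESeq2 and the fits without replicate 1 of 3 h (adjusted p = 0.0599), replicate 2 of 3 h (0.321), replicate 1 of 6 h (0.180) and replicate 2 of 6 h (0.0657). Whether Rc3h1 and Rc3h2 responded differently at 6 h was not tested; their 95% intervals, -0.15 to 0.05 and -0.36 to -0.16, did not overlap. Rc3h1 made up 53.9% ± 0.627 of the Roquin sum per kilobase at 0 h and 57.4% ± 1.16 at 6 h. In CPM the order was the other way, with means of 77.7 for Rc3h1 and 115.5 for Rc3h2 at 0 h. Which of the 2 had the larger share thus depended on the exon lengths used. The hairpin printed above, shared by both genes, was thus present in 1 gene that was called at 6 h and in 1 that was not.

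The other AU-rich element binders, Elavl1, Khsrp and Hnrnpd, were not called against 0 h at either time. Elavl1 (ENSMUSG00000040028, chromosome 8, 4285382 to 4325413), which encodes HuR, a protein that mostly stabilizes its targets, measured 148.0 and 149.4 CPM (0 h), 153.8 and 149.7 CPM (3 h) and 151.5 and 147.7 CPM (6 h). The 0 and 6 h libraries overlapped, and the log2 fold change at 6 h was 0.01 ± 0.04 (95% interval -0.07 to 0.09, adjusted p = 0.899). Hnrnpd (ENSMUSG00000000568, chromosome 5, 99955935 to 99978938), which encodes the AUF1 isoforms, measured 486.6 and 494.1 CPM (0 h), 490.7 and 507.1 CPM (3 h) and 463.3 and 503.9 CPM (6 h). Over 5.24% of its exon length lies the opposite-strand gene Gm17092, with 71 to 92 counts a library. The 6 h libraries of Hnrnpd spanned those of 0 h (log2 fold change -0.02, 95% interval -0.10 to 0.06, adjusted p = 0.754).

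Khsrp (ENSMUSG00000007670, chromosome 17, 57021051 to 57031522) encodes a KH domain protein that recruits decay enzymes to AU-rich mRNAs. It measured 424.7 and 441.8 CPM (0 h), 442.8 and 436.1 CPM (3 h) and 402.7 and 409.3 CPM (6 h). Both 6 h libraries lay below the other 4. Against 0 h the log2 fold change of -0.09 ± 0.03 missed the threshold (adjusted p = 0.0503) and passed in 3 of the 16 alternatives, limma voom and the feeder covariate (adjusted p = 0.00329, range over the alternatives 0.00329 to 0.346) among them. Against 3 h Khsrp was lower by a log2 fold change of -0.11 ± 0.03 (adjusted p = 0.0203), a call that 7 of the 16 alternatives lost, among them DESeq2 and the fits without replicate 1 of 3 h (adjusted p = 0.180), replicate 2 of 3 h (0.103) and replicate 1 of 6 h (0.0894).

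Between 3 h and 6 h the edgeR fit thus called 4 of the 10 genes, Zc3h12a, Rc3h2, Khsrp and Rc3h1, all lower, where 21.7% of all genes were called, 11.8% as lower and 9.9% as higher. DESeq2 called 2 of them, where it called 9.2% of all genes, 6.02% as lower. None was called higher by either tool. At an unadjusted p under 0.05 in edgeR 4 members were lower, against 17.6% of all genes, and 1, Zfp36l2, was higher, against 16.7%. Groups did not overlap in 6 members, against 60.8% of all genes. Feeder markers went the other way over that step, with 8 of 24 called higher and a median log2 fold change of 0.11, and with their mean as a covariate only Zc3h12a (-0.37, adjusted p = 0.0169) and Rc3h2 (-0.20, adjusted p = 0.0358) were called.

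Members with and without the nonamer were found on both sides of the threshold. Of the 3 genes that fell at 6 h, Zfp36 and Rc3h2 hold it and Zc3h12a does not, and Elavl1, with 8 copies, was among the genes whose value was nearest 0. The same was described over all tested genes with a 3' UTR in the annotation. Among 1124 genes with at least 1 nonamer the median log2 fold change at 6 h was -0.0046, and 17.5% were called lower and 11.9% higher. Among 12400 genes without a nonamer the median was 0.00383, with 13.1% lower and 11% higher. For 3' UTRs over 3000 bases the shares called lower were 18.3% with and 17.1% without a nonamer. From 1000 to 3000 bases they were 17% and 14.4%, and under 1000 bases 17% and 10.7%. The numbers of genes with a nonamer in these 3 classes were 426, 522 and 176. At 3 h the medians were -0.00947 and 9.15e-05.

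Other sequence-specific binders of mRNA, a list of 24 genes that were all tested, had 0 members called at 3 h by edgeR, DESeq2 and limma voom. At an unadjusted p under 0.05 in edgeR there were 2, 1 in each direction, where 6.19% of all genes were lower and 4.48% higher. At 6 h 7 fell and 2 rose, where 12.3% of all genes were called lower and 10% higher, and DESeq2 called 5 lower and 1 higher, where it called 6.91% of all genes lower and 3.89% higher. The median log2 fold change was -0.04 against 0.00195 for all genes. Tia1, which encodes a stress granule protein that binds U-rich sequences, rose by 0.32 (adjusted p = 0.000266). The cytoplasmic polyadenylation element binders Cpeb4 and Cpeb2 fell by 0.33 and 0.38, and Celf2, a binder of GU-rich elements, fell by 0.36. Hnrnpdl and Fubp3, relatives of Hnrnpd and Khsrp, fell by 0.19 and 0.18 (adjusted p = 0.00129 and 0.00190). The further relatives Hnrnpab and Fubp1, at -0.04 and 0.01, were not called and were named after their values were seen. Hnrnpd and Khsrp, at -0.02 and -0.09, were not called, Khsrp narrowly so in edgeR (adjusted p = 0.0503), and differences between the relatives were not tested. The HuR relative Elavl2 rose by 0.18 (adjusted p = 0.0474) but was not called by DESeq2 (adjusted p = 0.261), and it was named after its value was seen. The Regnase relatives Zc3h12b and Zc3h12d, at mean levels of 1.67 and 0.165 CPM at 0 h, were not called. Their log2 fold changes at 6 h were 0.54 (edgeR unadjusted p = 0.0400, adjusted p = 0.123) and 1.46 (0.0278 and 0.0960). For both, the 6 h libraries lay above the 0 h libraries, Zc3h12d on 1 to 11 counts a library. The ZFP36 relative Zfp36l3, at 0.829 CPM and a log2 fold change of 0.08, was not called. These relatives too were named after their values were seen.

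Partners and regulators of the members formed a list of 23 genes, all tested. At 3 h 0 were called by edgeR, DESeq2 and limma voom. At an unadjusted p under 0.05 in edgeR 3 were higher and 1 lower, against 4.48% and 6.19% of all genes. At 6 h 6 fell and 3 rose (median log2 fold change -0.03), where 12.3% of all genes were called lower and 10% higher. DESeq2 called 4 lower and 1 higher, against 6.91% and 3.89%. Nufip2, which encodes an RNA-binding cofactor of Roquin, had the smallest adjusted p of the list and fell by 0.29 (adjusted p = 1.25e-05), from 309.6 to 253.9 CPM. Khnyn, which encodes a nuclease of the same NYN domain group as Regnase-1, rose by 0.37 (adjusted p = 0.000217). Btrc, a subunit of the ubiquitin ligase that marks Regnase-1 for destruction, rose by 0.24 (adjusted p = 0.00853), which DESeq2 did not call (adjusted p = 0.0838). The 14-3-3 genes Ywhah and Ywhag, whose products bind phosphorylated ZFP36 proteins, fell by 0.18 and 0.12. Of the other 14-3-3 genes listed, Ywhae fell by 0.11 (adjusted p = 0.0255). Ywhab, Ywhaq and Ywhaz, at -0.01, -0.03 and -0.07, were not called. These other 14-3-3 genes were named after their values were seen. Upf1, the helicase that works with Regnase-1, fell by 0.14. The kinase genes Mapk14 and Mapkapk2, which act on ZFP36, and Cnot1, the scaffold of the deadenylase, had log2 fold changes of -0.08, -0.03 and -0.03 and were not called; they were named after their values were seen.

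Known target mRNAs of these factors formed a list of 28, of which 22 were tested. At 3 h edgeR and DESeq2 called 0, and limma voom called 1, lower, where it called 0.127% of all genes lower. At an unadjusted p under 0.05 in edgeR 5 were lower and 0 higher, against 6.19% and 4.48% of all genes. At 6 h 10 fell and none rose, where 12.3% of all genes were called lower. At an unadjusted p under 0.05 there were 13 lower and 0 higher, against 18.2% and 16.4% of all genes, and DESeq2 also called 10 lower, against 6.91%. The median log2 fold change was -0.23, against 0.00195 for all genes. Pim3 and Pim1, growth-promoting kinases, fell by 0.69 and 0.48, Ptgs2, the inducible cyclooxygenase, by 0.72 and Socs3, a feedback inhibitor of cytokine signalling, by 0.42. The kinase gene Plk3 fell by 0.53, and the stress response gene Ier3, whose mRNA is a target of ZFP36, by 0.39 (adjusted p = 0.000337). Fos and Ccl2, with log2 fold changes of 0.03 and 0.02 at 6 h, were not called and were named after their values were seen. Tnf, Il1b, Il2, Csf2, Cxcl2 and Icos had too few counts to be tested. The list was chosen with earlier results for several of its genes known and is no independent evidence of its direction.

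**Figure D4:**
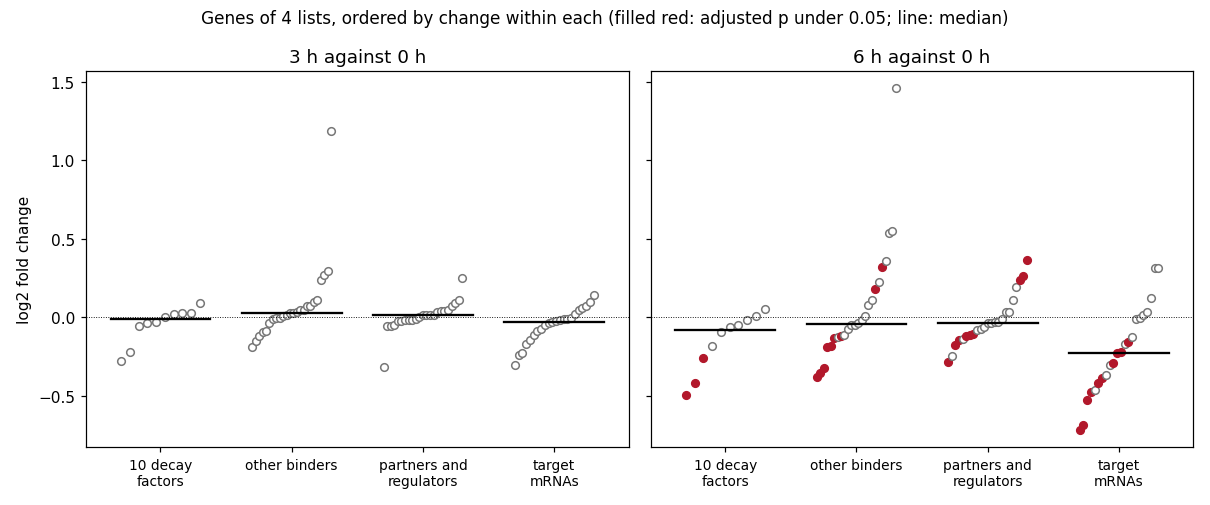
Log2 fold changes (y axis) of the 10 genes and of the tested genes of the 3 lists, at 3 h and 6 h against 0 h; each circle is a gene, filled red where the adjusted p was under 0.05, and lines are medians. At 3 h no circle is filled, and at 6 h the target mRNAs have the lowest median, -0.23, against -0.08 for the 10 genes.

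Zc3h12a had the smallest adjusted p of the 10 at 6 h, and its profile over the 6 libraries was compared with 9705 well-expressed named genes. The highest Pearson correlations of log2 CPM were those of Firre, a nuclear non-coding RNA (r = 0.999), the replication clamp unloader Atad5 (r = 0.999), the mitotic checkpoint gene Bub3 (r = 0.998), the ribosome biogenesis gene Utp15 (r = 0.997) and the immediate early gene Ier2 (r = 0.997). At 6 h these had log2 fold changes of -0.25, -0.24, -0.18, -0.27 and -0.33, each nearer 0 than that of Zc3h12a. The most opposite profiles were those of L3mbtl3, Mgat3, Crtc3, Mymx and Ttyh2 (r = -0.999 to -0.995). The points share libraries and depth and form 3 pairs of replicates, so such values describe a shape, level from 0 to 3 h and different at 6 h.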

How the data were processed

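The members and gene lists were chosen with earlier results of these data known. The authors deposited 1 table of unnormalized counts per Ensembl gene, made, per the submitters' processing notes, with fastp 0.22.0, HISAT2 2.2.1 and featureCounts 2.0.3 on GRCm38 (mm10); the sources used here give no annotation release, strand setting or treatment of multi-mapping reads. GENCODE M21 gave symbols for 55227 of 55487 IDs (the rest held 0.00294% of counts), exon lengths and 3' UTRs. With R 4.3.3, genes were filtered by filterByExpr (minimum 10 counts; 15748 genes, 99.9% of counts), scaled by TMM and tested with edgeR 4.0.16's quasi-likelihood test in 1 fit with a mean for each of the 3 groups (6 libraries, 3 residual degrees of freedom), Benjamini-Hochberg adjusted over all genes, two-sided, threshold 0.05. Values are TMM-scaled CPM. SE is the log2 fold change divided by the square root of F. Alternatives used limma 3.58.1, DESeq2 1.42.0 and other settings given in the closing section. The test was tried on simulated data. Promoters are from RefSeq; motifs there were searched on both strands. Named genes were the 10 members, up to 6 called genes a list by adjusted p, and 5 profiles each way for the member with the smallest adjusted p at 6 h. Nothing in the labels says that the libraries of a group are separate cultures; the p-values then reflect only library-to-library spread, possibly technical.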

Additional observations from a re-analysis of the deposited data

How the results depend on the processing

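The 16 alternatives were RLE factors, no filter, a filter of at least 1 CPM in at least 2 libraries, DESeq2, limma voom, edgeR's legacy dispersions, only the 4 libraries compared, the replicate block, the feeder marker covariate, leaving out each of the 6 libraries, and library sizes without scaling factors (added after seeing the data). Of 480 values of single members under them, 458 kept their side of the threshold, 16 lost and 6 gained a call, and none of the called values changed sign. The calls of Zc3h12a, Zfp36 and Rc3h2 at 6 h against 0 h held under all 16. The count of members called was 0 at 3 h under every alternative and 3 or 4 at 6 h against 0 h. For 6 h against 3 h it was 4, but 2 with no filter, 2 with DESeq2, 2 with the feeder covariate and 1 to 4 without each library in turn, where the lone sample of a group is assumed to vary like the others. Without scaling factors it was 3, with Khsrp and Rc3h1 lost and Zfp36l2 called higher (log2 fold change 0.14, adjusted p = 0.0435). The number of all genes called at 3 h was 22, but 0 with no filter (1839 at an unadjusted p under 0.05 in edgeR, 1680 with the filter), 12 with DESeq2, 74 with only the 4 libraries compared, 242 with the replicate block and 4 to 249 without each library (leaving out replicates 1 and 2 gave 12 and 249 for 0 h, 4 and 7 for 3 h, and 89 for either one of 6 h). At 6 h against 0 h it was 3517, but 2029 with no filter and 1701 with DESeq2, and at 6 h against 3 h it was 3415, but 1726 with no filter, 1449 with DESeq2, 1681 with the feeder covariate and 1515 to 3708 without each library (1713 and 1515 without replicates 1 and 2 of 3 h, 2158 without replicate 1 of 6 h). With no filter 29291 genes were tested and adjusted over; the cause of the other changes was not tested. Library sizes without scaling factors gave 2128 higher and 1454 lower genes at 6 h against 0 h, where TMM gave 1577 and 1940, and 2058 and 1293 at 6 h against 3 h, where TMM gave 1559 and 1856. The labels do not say whether the replicate numbers pair the libraries. Deviations of same-numbered libraries from their group means correlated weakly, at 0.0638, 0.137 and 0.00444 over 12508 genes. Summed feeder markers were higher in replicate 1 than in replicate 2 at each time (27481 and 25081, 24306 and 23818, 27088 and 24275 CPM). Pairing was therefore not settled, and the replicate block called 0, 4 and 5 members. At these depths, members with few counts, such as Zc3h12c, had wide 95% intervals (-0.40 to 0.04 on the log2 scale at 6 h against 0 h).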
